A study of Arabidopsis thaliana with 6 samples.

Results

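FLOWERING LOCUS C (FLC, AT5G10140) and its closest relatives in Arabidopsis thaliana, FLOWERING LOCUS M (FLM, also called MAF1, AT1G77080) and MADS AFFECTING FLOWERING 2 to 5 (MAF2, AT5G65050; MAF3, AT5G65060; MAF4, AT5G65070; MAF5, AT5G65080), were chosen by locus identifier. All 6 loci were found among the 62524 rows of the count table, and all 6 were among the 18498 features that passed the filter on low counts. The samples were leaves of ddcc plants, mutant for the DNA methyltransferase genes DRM1, DRM2, CMT2 and CMT3, and leaves of wild-type plants, with 3 polyadenylated RNA libraries of each genotype. All plants were of accession Col-0, aged 28 days, and grown on soil at 21 °C with 16 h of light and 8 h of darkness after 48 h at 4 °C. The labels give neither the mutant alleles nor whether a library came from 1 plant or several, so p-values measure the spread between these libraries, which may be technical in part.

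FLC is a MADS-box transcription factor that delays flowering. It binds CArG boxes in the florigen gene FT and in SOC1 together with its partner SVP, and it keeps both genes low until prolonged cold silences FLC through Polycomb chromatin. FRIGIDA raises FLC, the autonomous pathway (FCA, FLD, FVE and others) lowers it, and Col-0 carries a FRIGIDA allele that does not function, so FLC is low in this accession even without cold. FLM and the MAF genes also delay flowering in most tests, FLM with SVP in response to ambient temperature. DRM1 and DRM2 (guided by small RNA), CMT2 and CMT3 (guided by histone H3 lysine 9 methylation) methylate cytosines outside the CG context.

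The 6 genes are close paralogs, and the coding part of their first exon, which encodes most of the MADS DNA-binding domain, shows how alike they are. FLC lies alone on the minus strand of chromosome 5 (3173382 to 3179448), FLM on the plus strand of chromosome 1 (28955483 to 28960234). MAF2 to MAF5 form a tandem cluster on the plus strand of chromosome 5 (25982254 to 26002619). The 185 bases that end at the last base of this exon are given for each gene in sense orientation, from RefSeq TAIR10.1, with capitals at each base that differs from FLC.
FLC: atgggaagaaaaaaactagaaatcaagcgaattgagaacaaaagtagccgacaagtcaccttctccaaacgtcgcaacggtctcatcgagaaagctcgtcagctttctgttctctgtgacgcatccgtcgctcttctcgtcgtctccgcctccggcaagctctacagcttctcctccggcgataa
FLM: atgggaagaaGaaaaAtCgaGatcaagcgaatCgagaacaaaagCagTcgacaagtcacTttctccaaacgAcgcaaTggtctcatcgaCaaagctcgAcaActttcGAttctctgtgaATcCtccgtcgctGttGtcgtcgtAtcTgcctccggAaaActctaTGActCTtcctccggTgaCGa
MAF2: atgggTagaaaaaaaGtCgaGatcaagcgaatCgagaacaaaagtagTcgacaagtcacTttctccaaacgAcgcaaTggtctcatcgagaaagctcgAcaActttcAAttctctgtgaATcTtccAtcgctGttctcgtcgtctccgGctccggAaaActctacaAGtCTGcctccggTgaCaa
MAF3: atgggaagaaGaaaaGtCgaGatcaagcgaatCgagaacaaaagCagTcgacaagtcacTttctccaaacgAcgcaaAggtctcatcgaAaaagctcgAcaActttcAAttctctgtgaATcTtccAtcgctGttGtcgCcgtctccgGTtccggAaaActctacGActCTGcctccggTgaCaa
MAF4: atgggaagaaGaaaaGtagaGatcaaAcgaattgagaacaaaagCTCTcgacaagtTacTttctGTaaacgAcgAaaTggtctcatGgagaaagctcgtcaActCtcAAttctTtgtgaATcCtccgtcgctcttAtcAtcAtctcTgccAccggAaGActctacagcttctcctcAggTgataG
MAF5: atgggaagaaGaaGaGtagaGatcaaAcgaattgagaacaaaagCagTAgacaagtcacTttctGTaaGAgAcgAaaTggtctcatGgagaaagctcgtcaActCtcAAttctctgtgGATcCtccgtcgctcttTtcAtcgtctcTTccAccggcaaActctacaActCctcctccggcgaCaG

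MAF2 was nearest to FLC over this exon, with 28 differing bases (84.9% identity), and MAF4 and MAF5 were farthest, with 35 each (81.1%). MAF2 and MAF3 differed from each other at 10 bases, and the longest run shared by any pair was the 61 bases common to FLM and MAF3. Reads over such runs can be assigned to the wrong member, so shared stretches were counted over all annotated exons. No 50-base stretch of the exons of FLC, MAF2, MAF4 or MAF5 occurred elsewhere in the genome, while 0.280% of those of FLM and 2.46% of those of MAF3 did.

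FLC was the one member called different between genotypes with all libraries kept. Its counts were 102, 93 and 81 in the ddcc libraries, against 22, 22 and 21 in the wild-type libraries. The genotypes did not overlap, as with the CPM ranges of 43.5% of tested features, and the wild-type values were nearly equal. Scaled to library size, FLC averaged 4.99 ± 0.568 CPM (TMM-scaled CPM throughout) in ddcc and 1.34 ± 0.0502 CPM in wild type (SD, n = 3 each). The log2 fold change was 1.89 (SE 0.18, 95% interval 1.50 to 2.28), which is a 3.71-fold higher level (2.83 to 4.87), with an edgeR quasi-likelihood Benjamini-Hochberg adjusted p of 3.06e-05. In every setting tried, leaving out each library included, FLC remained called with a log2 fold change of 1.84 to 1.99. Of all tested features 15.5% were called higher in ddcc and 12.7% lower, so a call by itself is common in this comparison. A change of this size was less so, since 1.98% of tested features had an absolute log2 fold change at least as large. In bulk leaves, more cells that express FLC and more FLC RNA per cell cannot be told apart.

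**Figure D1:**
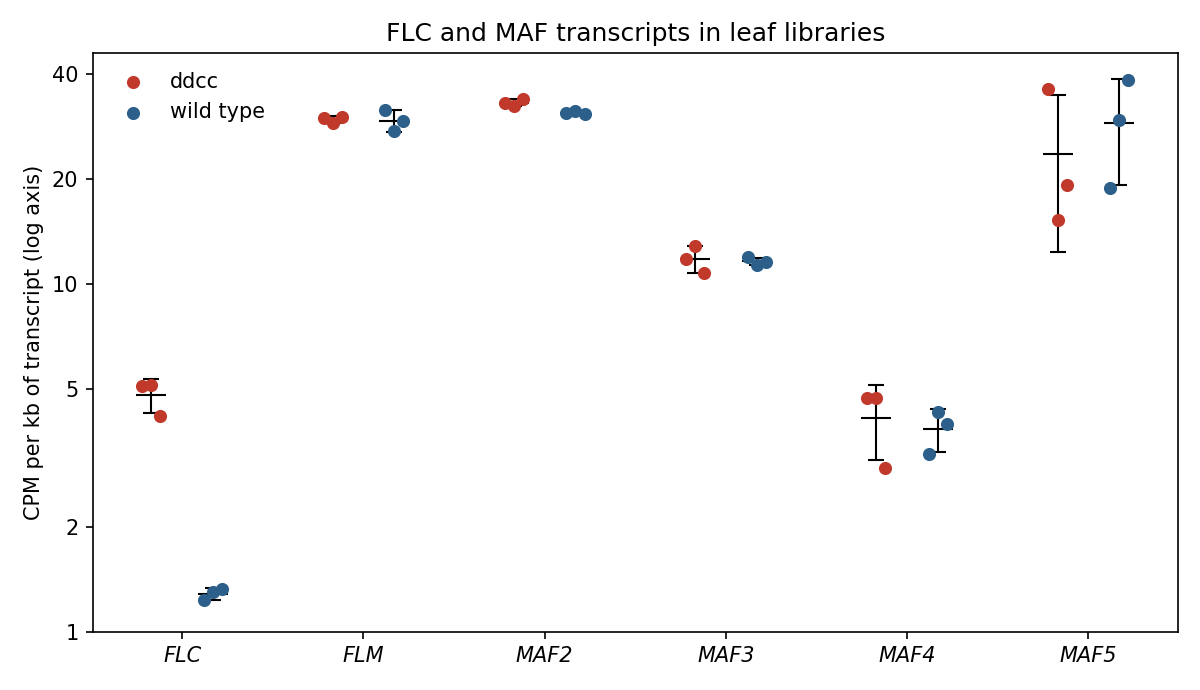
Level of each FLC and MAF gene in each library, as CPM per kb of the transcript with the longest coding sequence (log axis). Points are libraries, with ddcc left of wild type for each gene, and black marks are the mean ± SD (n = 3). FLC sits at 4.16 to 5.10 in ddcc and at 1.23 to 1.32 in wild type, while the other 5 genes overlap between genotypes or, for MAF2, lie close together.

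The same difference appeared within each library, where no scaling is needed. FLC made up 4.41%, 5.14% and 4.15% of the counts of the 6 genes in ddcc, against 1.27%, 1.28% and 1.21% in wild type. The exact 95% binomial intervals reached down to 3.31% in ddcc and up to 1.93% in wild type and so did not overlap between genotypes, though they cover counting error only. The ratio of each of the other 5 genes to FLC was lower in all ddcc libraries than in all wild-type libraries. All 5 ratios are divided by the same FLC counts, so they restate the FLC difference and are not separate results. For FLM the counts were 6.17, 5.96 and 7.60 times those of FLC in ddcc, against 27.0, 22.2 and 23.2 times in wild type. An exact permutation test, two-sided, returned p 0.1 for each of the 5 ratios (0.1 after Benjamini-Hochberg adjustment over them), which is the smallest p possible with 3 libraries a side.

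FLC overlaps an annotated antisense gene, which bears on what its counts hold. The locus AT5G01675 lies on the opposite strand (chromosome 5, 3173371 to 3179600), and its annotation describes it as a natural antisense transcript of FLC. Its exons cover 68.1% of the FLC exon length. The sources used here do not say whether counting used strand, and AT5G01675 has no row in the count table. Sense and antisense RNA therefore cannot be told apart in the FLC count. The other 5 genes have no annotated gene overlapping them.

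**Figure D2:**
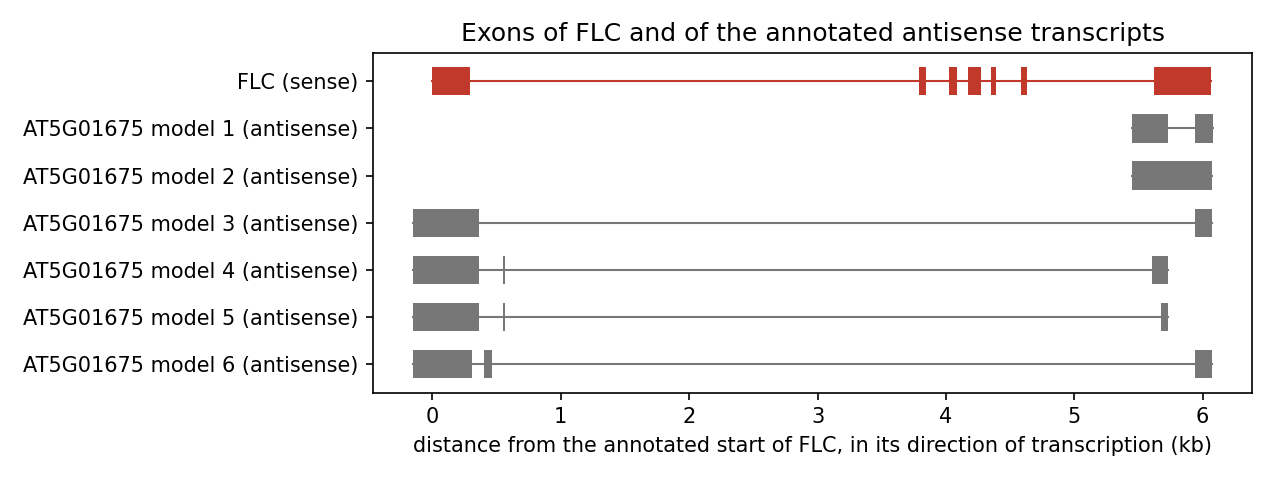
Exons of FLC (red, the transcript with the longest coding sequence) and of the 6 annotated transcript models of AT5G01675 on the opposite strand (grey), drawn to scale as the distance in kb from the annotated start of FLC. The antisense exons lie over the first exon and over the last exon of FLC and pass its start by 0.152 kb.

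The bases before the FLC start are given because ddcc plants lack the main enzymes for methylation outside CG. Capitals mark the cytosines of the printed strand that are not followed by G, in the 250 bases before the annotated start, chr5:3179449-3179698, minus strand, RefSeq TAIR10.1.
FLC upstream: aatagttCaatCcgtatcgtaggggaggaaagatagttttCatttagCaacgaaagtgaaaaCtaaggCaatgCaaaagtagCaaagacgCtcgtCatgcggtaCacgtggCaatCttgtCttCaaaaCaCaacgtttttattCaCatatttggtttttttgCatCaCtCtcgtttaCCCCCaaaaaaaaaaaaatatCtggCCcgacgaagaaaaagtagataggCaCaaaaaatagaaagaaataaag

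This strand holds 33 cytosines outside CG and 11 in CG, and the last 152 bases before the start also lie in the antisense gene. Over both strands the FLC window had 22 cytosines in CG, 5 in CHG and 64 in CHH (H is any base but G). The medians of 27443 protein-coding genes were 10, 8 and 59. MAF4 had 1 CHG cytosine and 57 in CHH in the same window, and FLM had 16 and 47 in those contexts. MAF2, MAF3 and MAF5 had 15, 15 and 11 in CHG, and 44, 55 and 43 in CHH. In CG, FLM and MAF4 had 22 like FLC, MAF2 had 26, MAF3 had 14 and MAF5 had 16. The G-box CACGTG, which reads the same on both strands, occurred 1 time in the FLC window and in none of the other 5, against 6.49% of all such windows. No window of the 6 held a CArG box on either strand, which 2.52% of all windows do. The RY element CATGCA was also absent from both strands of all 6, and 8.43% of all windows hold it. Methylation of these bases was not analysed here.

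FLM and MAF2, the most abundant members with MAF5, did not pass the test. FLM had 629, 554 and 616 counts in ddcc, against 593, 488 and 488 in wild type. As CPM it averaged 32.5 ± 0.690 in ddcc and 32.2 ± 2.26 in wild type (SD, n = 3 each), and the genotypes overlapped. The log2 fold change was 0.01 with a 95% interval of −0.14 to 0.16 (edgeR adjusted p 0.928), an interval that spans 0.908-fold to 1.12-fold. MAF2, known for delaying the response to short cold, averaged 35.6 ± 0.837 CPM in ddcc and 33.3 ± 0.365 CPM in wild type. Its ddcc libraries, at 35.4, 34.8 and 36.5 CPM, all lay above its wild-type libraries, at 33.3, 33.6 and 32.9 CPM. Such a lack of overlap was found for 43.5% of tested features. The log2 fold change of MAF2, 0.10 (95% interval −0.03 to 0.22), did not pass the threshold (edgeR adjusted p 0.236).

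MAF3 and MAF4 did not pass the test either. MAF3 averaged 13.6 ± 1.20 CPM in ddcc and 13.4 ± 0.326 CPM in wild type (SD, n = 3 each), with a log2 fold change of 0.02 (95% interval −0.17 to 0.21, edgeR adjusted p 0.889). MAF4 had 91, 83 and 56 counts in ddcc, against 56, 70 and 61 in wild type. The genotypes overlapped, since ddcc replicate 3 had the same count as wild-type replicate 1. With so few counts the interval was wider, −0.34 to 0.55 around a log2 fold change of 0.11 (edgeR adjusted p 0.728). Leaving out single libraries gave 0.0013 to 0.30, and MAF4 was called in none of these fits.

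MAF5 varied more between replicates than any other member. Its counts were 551, 210 and 283 in ddcc, against 256, 379 and 462 in wild type. The highest value, 28.7 CPM in ddcc replicate 1, was matched by 30.4 CPM in wild-type replicate 3, and the lowest, 12.0 CPM in ddcc replicate 2, was close to 14.9 CPM in wild-type replicate 1. The coefficient of variation was 47.7% in ddcc and 33.7% in wild type, against medians of 7.54% and 7.34% over all tested features. It exceeded that of 97.9% of features in ddcc and 96.0% in wild type. The log2 fold change of −0.28 had a 95% interval of −0.95 to 0.39 (edgeR adjusted p 0.526). Without ddcc replicate 1 it was −0.74 (edgeR adjusted p 0.0412), so this library decides whether MAF5 is called lower.

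The tandem cluster as a whole did not pass the test. The summed counts of MAF2 to MAF5, which do not depend on how reads were divided among the 4 genes, were 1583, 1161 and 1253 in ddcc, against 1119, 1208 and 1227 in wild type. The sum can still depend on how reads of MAF3 that also match elsewhere were treated, which is not known. Of the 29 exonic 50-base stretches of MAF3 found elsewhere in the genome, 12 were shared with the exons of another member, FLM. The mean was 72.0 ± 9.13 CPM in ddcc and 73.4 ± 7.72 CPM in wild type (SD, n = 3 each). The log2 fold change was −0.03 (95% interval −0.24 to 0.19, edgeR adjusted p 0.860). Over the 6 genes, 1 was called higher and 0 were called lower by edgeR, against 15.5% and 12.7% of all tested features. The same counts of these genes were found at an unadjusted p under 0.05 and with DESeq2. Their median log2 fold change was 0.06, against −0.0034 over all tested features.

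**Figure D3:**
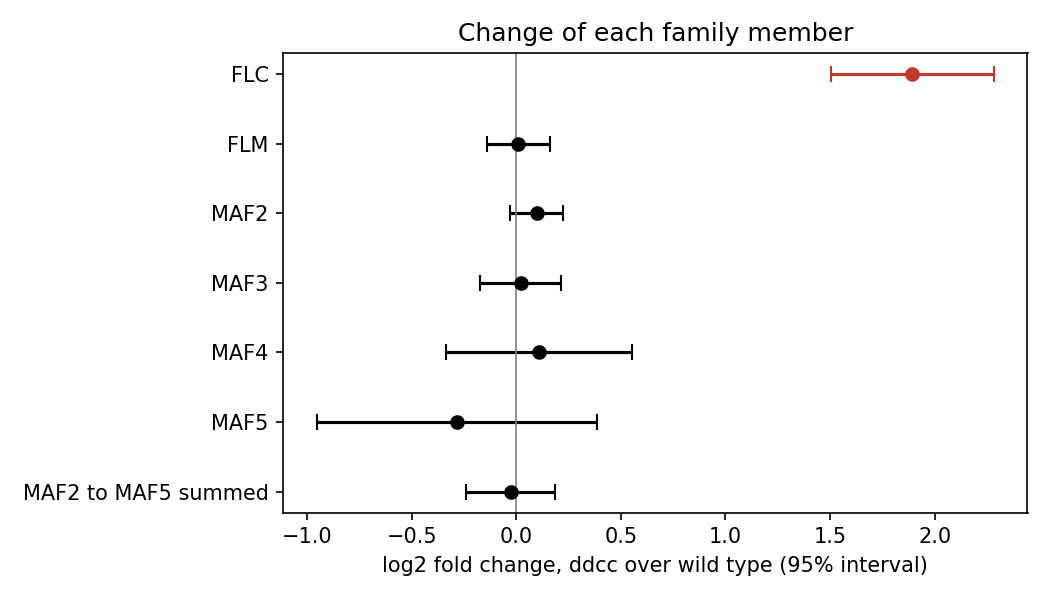
Log2 fold change of each gene, ddcc over wild type, with its 95% interval from the edgeR fit (n = 3 libraries each). FLC stands at 1.89, and the intervals of FLM, MAF2 to MAF5 and the tandem sum all include 0, the widest being that of MAF5 (−0.95 to 0.39).

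Levels of the members were ranked per kb of the transcript with the longest coding sequence. In ddcc the order of mean levels in CPM per kb was MAF2 (33.2), FLM (29.7), MAF5 (23.6), MAF3 (11.8), FLC (4.79) and MAF4 (4.12). In wild type it was MAF2 (31.0), FLM (29.4), MAF5 (29.0), MAF3 (11.6), MAF4 (3.82) and FLC (1.29). FLC and MAF4 overlapped in ddcc, at 4.16 to 5.10 and 2.97 to 4.70, whereas in wild type every MAF4 value, from 3.23 up, lay above every FLC value. MAF2 and FLM overlapped in wild type and not in ddcc, and MAF5 overlapped both in either genotype. FLM and MAF2 have annotated models that keep long introns, and over the union of all exons MAF5 came first, at 15.2 CPM per kb in ddcc and 18.6 in wild type. With that length FLC and MAF4 kept the lowest 2 places in both genotypes.

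The table was then searched for the genes whose profile over the 6 libraries lay nearest to that of FLC, by the root mean square difference of centred log2 CPM among 16035 features. SAG21, a stress-induced gene for a late embryogenesis abundant-like protein, was nearest (0.0926 on the log2 scale), with 168, 168 and 153 CPM in ddcc, against 38.4, 45.6 and 46.3 CPM in wild type. AT5G52760, annotated as a member of a copper transport protein family, followed (0.0940), with 29.6, 29.6 and 27.9 CPM in ddcc, against 7.35, 7.64 and 8.87 CPM in wild type. PAD4, a lipase-like regulator of salicylic acid defence, came next (0.126), at 103, 114 and 107 CPM in ddcc, against 30.5, 31.7 and 36.7 CPM in wild type. These genes, like FLC, fall into a high ddcc group and a low wild-type group, and 295 features were called higher with a log2 fold change at least that of FLC. The features nearest to MAF5, a search made after its values were seen, were AT2G40120, a protein kinase gene (0.199), AT5G04690, an ankyrin repeat gene (0.217), and AT2G27402 (0.223).

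**Figure D4:**
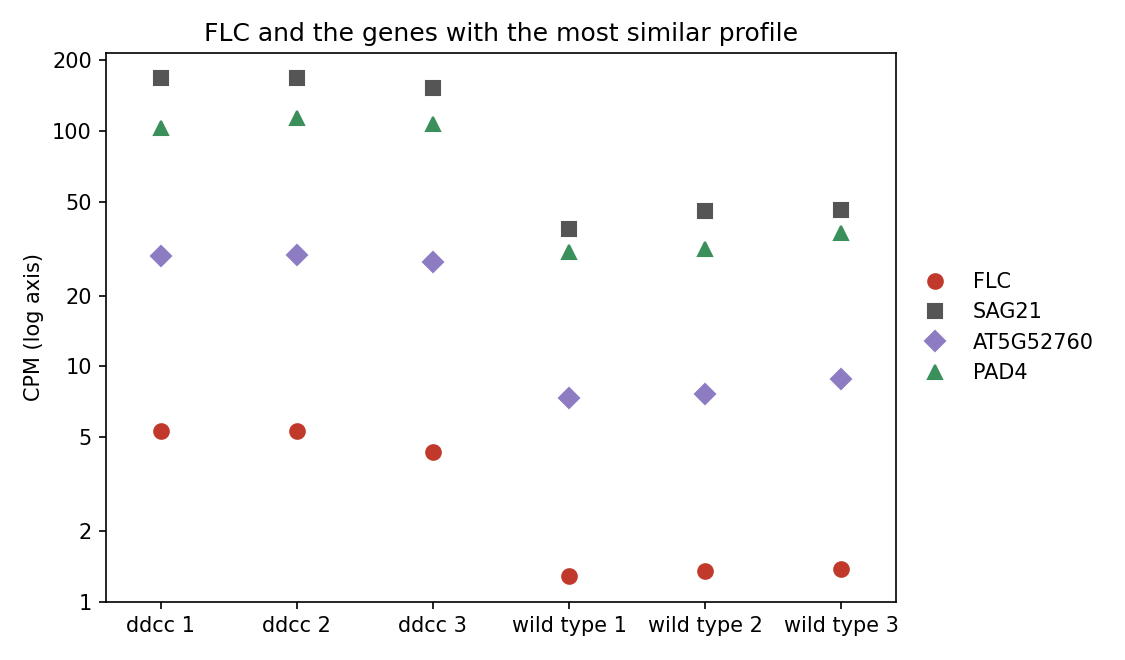
CPM (log axis) of FLC and of the 3 genes with the most similar profile in each of the 6 libraries. All 4 genes are higher in the 3 ddcc libraries than in the 3 wild-type libraries, with FLC at 4.33 to 5.32 CPM in ddcc and 1.28 to 1.38 CPM in wild type.

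Genes beside the members were examined next, taking the 5 annotated genes on each side. Around FLC, 6 of the 9 genes in the table were tested, with 1 called higher and 2 lower. Calls in either direction covered 28.2% of all tested features. AT5G10150, annotated as UPSTREAM OF FLC and named here after its values were seen, lies 2.49 kb from FLC and averaged 38.0 ± 2.06 CPM in ddcc and 37.4 ± 4.30 CPM in wild type (log2 fold change 0.02, 95% interval −0.16 to 0.21, edgeR adjusted p 0.866). On the other side AT5G10130, 0.681 kb away, had 1 count in ddcc and 1 in wild type over all libraries. The called genes lay farther off. MIPS3, an inositol phosphate synthase gene 7.83 kb away, fell by 0.65 on the log2 scale (edgeR adjusted p 0.00432). SULTR2;1, a sulfate transporter gene 13.6 kb away, fell by 0.74 (edgeR adjusted p 2.08e-05). AT5G10190, a transporter of the major facilitator superfamily 19.5 kb away, rose by 0.42 (edgeR adjusted p 5.40e-04).

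The surroundings of the other loci also held calls, beside a share of 28.2% called among all tested features. Beside FLM, AT1G77060 (log2 fold change −0.31, edgeR adjusted p 0.00455) and AT1G77090, a thylakoid lumen protein gene that begins 0.078 kb from FLM (−0.37, edgeR adjusted p 0.00116), were lower in ddcc, of 4 tested. Beside the tandem cluster the annexin gene ANNAT2 was lower (−0.46, edgeR adjusted p 0.0143) and the acyl-CoA oxidase gene ACX2 was higher (0.24, edgeR adjusted p 0.0104), of 4 tested. The call of ANNAT2 was lost without ddcc replicate 3, wild-type replicate 1 or wild-type replicate 2 (edgeR adjusted p up to 0.0633).

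Genes that raise FLC showed 3 calls, all of small changes. FRI, the FRIGIDA scaffold gene, had 93, 90 and 107 counts in ddcc, against 80, 81 and 98 in wild type (log2 fold change −0.03, 95% interval −0.37 to 0.31, edgeR adjusted p 0.905). Of 20 activator genes, all tested, 2 were called higher and 1 lower, against 15.5% and 12.7% of all tested features. The median log2 fold change of the 20 genes was −0.02. ARP6, a subunit of the SWR1 complex that deposits histone H2A.Z, rose by 0.28 (edgeR adjusted p 0.0245), and VIP5 of the PAF1 complex rose by 0.21 (edgeR adjusted p 0.0223). CDC73, another PAF1 subunit, fell by 0.28 (edgeR adjusted p 0.0310). SUF4, a zinc finger protein of the FRIGIDA complex, had a log2 fold change of 0.19 (edgeR adjusted p 0.0862), and SDG8, a histone H3 lysine 36 methyltransferase, of 0.05 (edgeR adjusted p 0.659). SUF4 passed without ddcc replicate 2, at 0.27 (edgeR adjusted p 0.00710).

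Repressors of FLC in the autonomous pathway showed 3 calls, in both directions. Of 13 genes, all tested, 1 was called higher and 2 lower, against 15.5% and 12.7% of all tested features. The median log2 fold change of the 13 genes was −0.07. FCA, an RNA-binding protein, rose by 0.18 (edgeR adjusted p 0.0426). FVE, a histone-binding WD40 protein, fell by 0.22 (edgeR adjusted p 0.0363). LDL2, a relative of the histone demethylase LSD1, fell by 0.71 (SE 0.24, edgeR adjusted p 0.0437), with 1.51, 1.54 and 2.35 CPM in ddcc, against 3.15, 2.34 and 3.42 CPM in wild type. The highest ddcc library just passed the lowest wild-type library. FLD, of the same enzyme family, had a log2 fold change of −0.02 (edgeR adjusted p 0.868). None of these activator and autonomous pathway calls held under all alternatives.

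They were borderline calls, lost in several settings while the log2 fold changes kept their sign. DESeq2, with all 6 libraries, did not call VIP5 (adjusted p 0.0950), CDC73 (0.143), FVE (0.106), FCA (0.0969) or LDL2 (0.0906). The call of ARP6 was lost without ddcc replicate 3, wild-type replicate 1 or wild-type replicate 3 (edgeR adjusted p up to 0.0728, log2 fold changes 0.20 to 0.35 over all alternatives), and that of VIP5 without ddcc replicate 3, wild-type replicate 2 or wild-type replicate 3 (up to 0.0846, log2 fold changes 0.18 to 0.24). CDC73 lost its call without any one library other than wild-type replicate 2 (edgeR adjusted p up to 0.111, log2 fold changes −0.34 to −0.24), and FCA without any one other than ddcc replicate 2 (up to 0.157, log2 fold changes 0.14 to 0.22). FVE lost its call without ddcc replicate 2 or 3 or wild-type replicate 1 or 3 (edgeR adjusted p up to 0.129, log2 fold changes −0.28 to −0.19), and LDL2 without ddcc replicate 1 or 2 or wild-type replicate 1 or 3 (up to 0.145, log2 fold changes −0.95 to −0.60). With library totals CDC73, FVE and LDL2 were also not called. FLC kept its call without each library in turn.

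The vernalization and Polycomb genes that silence FLC contained 3 calls, all higher (15.5% of all tested features were called higher and 12.7% lower). VIN3, the cold-induced trigger of this silencing, had 0 counts in every library, where 3 counts would equal 0.156 to 0.197 CPM. Of the 11 tested genes of 12, LHP1, a chromodomain protein that binds the Polycomb mark, rose by 0.34 (edgeR adjusted p 0.0160). VRN1, a DNA-binding protein, rose by 0.25 (edgeR adjusted p 0.0172), and VEL1, a relative of VIN3, by 0.21 (edgeR adjusted p 0.0165). By edgeR 0 of the genes were lower, also at an unadjusted p under 0.05, and DESeq2 called 1 higher and 0 lower. With all 6 libraries DESeq2 did not call LHP1 (adjusted p 0.0512) or VRN1 (0.0683). VRN2 and CLF, core Polycomb genes, had log2 fold changes of −0.08 and −0.02 (edgeR adjusted p 0.394 and 0.893). The call of LHP1 was lost without ddcc replicate 1 or wild-type replicate 1 (edgeR adjusted p up to 0.0533), that of VRN1 without wild-type replicate 1 (0.0605) and that of VEL1 without wild-type replicate 2 or 3 (up to 0.0708).

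**Figure D5:**
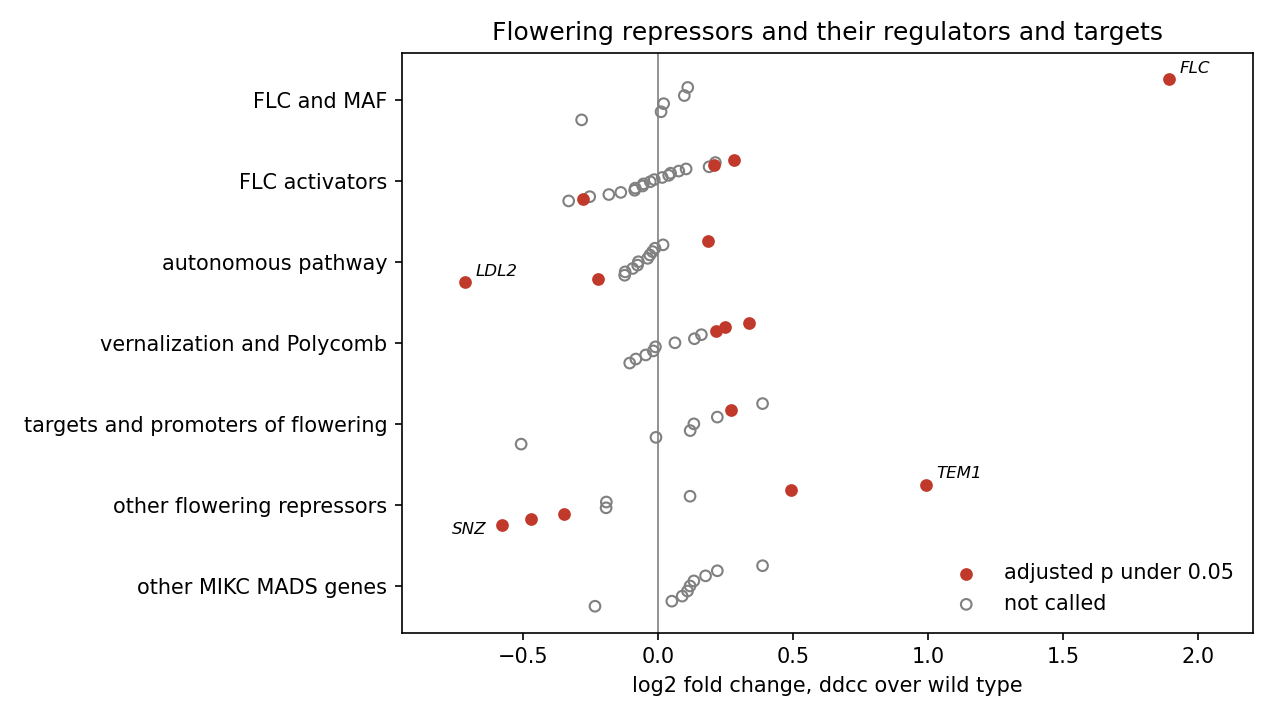
Log2 fold change, ddcc over wild type, of every tested gene in each list, with filled points for an edgeR adjusted p under 0.05 and open points for the rest. FLC lies at 1.89, TEM1 at 0.99 is the next highest, and the FLC activators and repressors lie between −0.71 and 0.34.

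The genes that FLC is known to repress were compared at their own levels. FT had 2, 2 and 5 counts in ddcc, against 3, 2 and 4 in wild type, and TSF, its homologue, had 0, 0 and 0 counts in ddcc, against 0, 0 and 1 in wild type. Both were below the filter, and a lower FT in ddcc could not be detected at this depth. With no filter beyond 1 count, FT had a log2 fold change of −0.18 (edgeR adjusted p 0.897). FT also cycles over the day, and the labels give no hour of harvest. SOC1 was abundant and averaged 98.7 ± 6.33 CPM in ddcc and 90.1 ± 4.27 CPM in wild type (SD, n = 3 each), with a log2 fold change of 0.13 (95% interval −0.01 to 0.27, edgeR adjusted p 0.145). It passed without ddcc replicate 2, at 0.18 (edgeR adjusted p 0.0422), with ddcc the higher genotype in both cases.

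Other genes that promote flowering held 1 call. Of the 7 tested genes of 12 in this list, 1 was called higher and 0 lower (1 and 1 at an unadjusted p under 0.05, and 0 and 0 with DESeq2). Among all tested features edgeR called 15.5% higher and 12.7% lower. The called gene was SPL4, an SBP-box factor, with a log2 fold change of 0.27 (edgeR adjusted p 0.0428, lost without ddcc replicate 1 or 3 or wild-type replicate 1 or 2, up to 0.131). AGL24, a MADS-box promoter of flowering, had a log2 fold change of 0.22 (edgeR adjusted p 0.229). FD, the partner of FT, had 55, 45 and 74 counts in ddcc, against 97, 65 and 56 in wild type (log2 fold change −0.51, edgeR adjusted p 0.106). Leaving out single libraries gave −0.71 to −0.29 for FD and 0.12 to 0.35 for AGL24, with no call in either. The floral meristem identity gene AP1 had 0 counts in all libraries and LFY had 1 count, in ddcc.

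The partner of FLC and FLM, SVP, did not pass the test, with 140, 140 and 144 CPM in ddcc, against 137, 130 and 123 CPM in wild type (log2 fold change 0.12, edgeR adjusted p 0.140). It passed with library totals alone, at 0.15 (edgeR adjusted p 0.0431). Of the other 10 repressors in the list, 5 were called, 2 did not pass and 3 were below the filter. TEM1, an AP2/B3-type repressor of FT, had 74.3, 77.3 and 86.3 CPM in ddcc, against 38.4, 36.8 and 44.4 CPM in wild type. It was 1.99-fold higher in ddcc (log2 fold change 0.99 with SE 0.08, edgeR adjusted p 1.28e-05). Its close relative TEM2 rose by 0.49 (edgeR adjusted p 0.00209).

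Of the 6 AP2-type genes in the list, a family known as targets of the microRNA miR172, 3 were called lower. SNZ averaged 16.6 ± 2.55 CPM in ddcc and 24.8 ± 0.543 CPM in wild type (log2 fold change −0.58, edgeR adjusted p 0.00166). TOE2 fell by 0.47 (edgeR adjusted p 0.00194) and TOE1 by 0.35 (edgeR adjusted p 0.00130). For each of the 3 the highest ddcc value was lower than the lowest wild-type value. Ranges without overlap, in either direction, were found for 43.5% of all tested features. The calls of TEM1, TEM2, SNZ, TOE1 and TOE2 held under all 15 alternatives. AP2 and TOE3 each had a log2 fold change of −0.19 and did not pass (edgeR adjusted p 0.159 and 0.305), and SMZ was below the filter, with 7, 6 and 6 counts in ddcc, against 7, 4 and 3 in wild type. In all, 8 of 11 genes in this list were tested, with a median log2 fold change of −0.19. Of these, 2 were called higher and 3 lower, against 15.5% and 12.7% of all tested features. Of 32 other MIKC-type MADS-box genes, the class to which FLC belongs, SVP, SOC1 and AGL24 included, 9 were tested. EdgeR and DESeq2 called 0 higher and 0 lower, as did an unadjusted p under 0.05 in edgeR, and the log2 fold changes ran from −0.23 to 0.39. With no filter beyond 1 count, AGL17, named here after its values were seen, was called higher (log2 fold change 2.36, edgeR adjusted p 0.0399), with 10, 5 and 10 counts in ddcc, against 1, 0 and 3 in wild type.

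Markers of tissue and leaf state were set beside these results. The 8 flower markers were all below the test filter, with summed levels of 0.686 to 0.856 CPM in ddcc and 0.591 to 0.863 CPM in wild type, and AP1 was at 0. The 4 shoot apex markers summed to at most 0.0535 CPM in ddcc and 0.0616 CPM in wild type, with WUS and CLV3 at 0. The 4 leaf markers summed to 51819 to 53681 CPM in ddcc and 54510 to 58551 CPM in wild type. Phloem companion cell markers, from the cells in which FT is made, summed to 513 to 606 CPM in ddcc and 616 to 720 CPM in wild type, and 2 of 4 were called lower, SUC2 (log2 fold change −0.29, edgeR adjusted p 0.0191) and APL (−0.26, edgeR adjusted p 0.0368). Of the 4 leaf markers 2 were called lower, RBCS1A (−0.19, edgeR adjusted p 0.0342) and RCA (−0.19, edgeR adjusted p 0.0144). For both marker lists, the share called lower among all tested features was 12.7%. Ranges without overlap, as in the sums of both lists, were found for 43.5% of single tested features. These marker calls were borderline too. With all libraries kept, APL was not called by DESeq2 (adjusted p 0.0633) or with library totals (edgeR adjusted p 0.0613), nor was RBCS1A with library totals (edgeR adjusted p 0.0516). SUC2 lost its call without ddcc replicate 3 or wild-type replicate 3 (edgeR adjusted p up to 0.0823, log2 fold changes −0.36 to −0.21 over all alternatives), and APL without ddcc replicate 1 or 2 or wild-type replicate 2 or 3 (up to 0.137, log2 fold changes −0.34 to −0.21). RBCS1A lost its call without ddcc replicate 1 or 3 or wild-type replicate 2 (edgeR adjusted p up to 0.112, log2 fold changes −0.22 to −0.13), and RCA without ddcc replicate 3 (0.0600, log2 fold changes −0.22 to −0.16).

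Of the 3 tested senescing-leaf markers of 4, 2 were called higher and 0 lower, against 15.5% and 12.7% of all tested features. WRKY53 rose by 0.82 (edgeR adjusted p 5.97e-05) and ORE1 by 0.51 (edgeR adjusted p 0.00502). SAG13 did not pass (log2 fold change −0.56, edgeR adjusted p 0.449), and SAG12 had 40 counts in ddcc replicate 2, 37 in wild-type replicate 2 and 0 in the other 4 libraries. The 4 markers summed to 61.5 to 74.1 CPM in ddcc and 46.9 to 49.2 CPM in wild type. Single features had ranges without overlap in 43.5% of those tested. The part of these markers in the FLC result was not tested. Library totals ran from 17265251 to 18809306 counts in ddcc and from 15188586 to 17644256 in wild type. Of the mutated genes, DRM2, CMT3 and CMT2 were lower in ddcc (log2 fold changes −1.14, −1.69 and −0.46), and DRM1 had at most 1 count in any library.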

How the data were processed

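RNA was measured in 6 libraries, 3 of ddcc and 3 of wild type, grouped by their titles. The authors deposited raw read counts per gene and transposable element. Per the submitters' processing notes, Trim Galore 0.6.0, cutadapt 1.15, STAR 2.7.0f and the build TAIR10 were used. The counting program, strand use and treatment of multi-mapping reads are not given in the sources used here. Gene models, positions and sequences came from RefSeq TAIR10.1.

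In R 4.3.3, edgeR 4.0.16 kept features by filterByExpr (minimum count 10), scaled libraries by TMM and compared genotypes with its quasi-likelihood test. Benjamini-Hochberg adjustment covered the 18498 features tested, and calls are those with an adjusted p under 0.05. The SE is the absolute log2 fold change over the square root of F, and intervals use the fit's degrees of freedom. DESeq2 1.42.0 was an alternative. Replicates differed by more than sampling noise (chi-square per degree of freedom 3.32 to 7.65). The number of unmatched sample columns was 0. The members and lists were chosen with earlier results of these data known. Named were all members, up to 5 called genes per list, a set of 15 pathway genes, called neighbours and the 3 profiles nearest to FLC.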

Additional observations from a re-analysis of the deposited data

How the results depend on the processing

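Over 15 alternatives FLC kept its call in all, with edgeR and DESeq2 adjusted p-values of 1.35e-09 to 4.27e-04. FLM, MAF2, MAF3, MAF4 and the tandem sum were called in none. Leaving out single libraries gave log2 fold changes of −0.038 to 0.070 for FLM, −0.043 to 0.083 for MAF3, 0.0013 to 0.30 for MAF4, −0.14 to 0.045 for the tandem sum and −0.74 to −0.030 for MAF5, and 0 to 1 members called lower. It gave −0.12 to 0.12 for FRI, −0.061 to 0.030 for FLD and −0.076 to 0.023 for CLF. Signs also turned with library totals, to 0.00653 for the tandem sum, 0.00336 for FRI, 0.013 for FLD and 0.016 for CLF, and for FLM with a mean count of at least 50, to −0.000833. None of these values was called, and the cause was not tested. Called FLC activators ran from 0 to 3 higher and from 0 to 1 lower, autonomous pathway genes from 0 to 1 higher and from 0 to 2 lower, and vernalization genes from 1 to 3 higher.

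The labels do not say whether libraries of the same replicate number were paired, and correlations alone cannot settle it. Same-numbered libraries deviated from their group means with correlations of −0.10, −0.08 and 0.03. With the replicate block FLC had a log2 fold change of 1.89 (edgeR adjusted p 2.97e-04), 2743 features were called higher and 2178 lower, no member's call changed, and those of FCA (0.0545) and SPL4 (0.0512) were lost. FLC rests on 21 to 102 counts per library, and FT on 2 to 5.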
